A study of Homo sapiens with 2 samples.

Results

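Cholesterol and fatty acid synthesis was followed through 30 genes of the program run by the sterol regulatory element-binding proteins (SREBPs). The genes were chosen by their place in the pathway, with earlier results of these data known. Their probes were found through the RefSeq accession of each spot. They make up 30 of 19058 named genes with a probe, and all 30 were among the 13012 genes compared between both conditions. In all they were read from 36 probes and 88 spots on each array. By role there were 7 enzymes of the mevalonate arm, 11 enzymes from squalene to cholesterol, 5 SREBP regulators, 1 sterol transporter and 6 fatty acid enzymes.

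The cells were SBC-3, a cell line of small-cell lung cancer (SCLC), a neuroendocrine lung tumor. One culture was transfected with #1 siHOTAIR, a small interfering RNA against the long noncoding RNA HOTAIR, and the control culture with siGFP, which targets green fluorescent protein, so both conditions carried an siRNA and the transfection reagent. Total RNA of each was labelled with Cy3 and read on 1 one-colour Agilent array, and the comparison asked how depletion of HOTAIR altered gene transcription. Neither condition was replicated, so no test between them was made, and an effect of the siRNA cannot be told apart from one of the culture or the array. The #1 siHOTAIR array stood for 1 of the HOTAIR siRNAs of the study, and the label of each sample gives no time after transfection.

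Cells build cholesterol from acetyl-CoA by way of mevalonate, farnesyl pyrophosphate and squalene, and fatty acids from the same acetyl-CoA by way of malonyl-CoA. When sterols are scarce in the endoplasmic reticulum, SCAP carries the SREBPs to the Golgi apparatus, where they are cut and released to the nucleus. The INSIG proteins hold SCAP back when sterols are plentiful. SREBP-2 acts mainly on sterol genes and SREBP-1c mainly on fatty acid genes, usually together with the promoter factors NF-Y and Sp1.

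The promoters of 6 of these genes, 250 bases before to 50 bases after the annotated start, are shown from RefSeq on the GRCh38.p14 assembly, 5′ to 3′ on the strand of the gene. MVK gave the lowest ratio of the mevalonate arm, and HSD17B7 and MSMO1 the lowest from squalene to cholesterol. STARD4, the sterol transporter, was lower than MVK and is not shown. ELOVL6 is shown because it gave the highest ratio, and NSDHL because it ran the other way from most sterol enzymes. SREBF2 is shown because it alone held the letters searched for as a sterol response element. Capitals mark the letters TCACNCCAC (sterol response element), CCAAT (NF-Y) and GGGCGG (GC box, the site of Sp1), each searched on both strands, so that ATTGG and CCGCCC are capital as well.
MVK, chr12:109573544-109573843, plus strand: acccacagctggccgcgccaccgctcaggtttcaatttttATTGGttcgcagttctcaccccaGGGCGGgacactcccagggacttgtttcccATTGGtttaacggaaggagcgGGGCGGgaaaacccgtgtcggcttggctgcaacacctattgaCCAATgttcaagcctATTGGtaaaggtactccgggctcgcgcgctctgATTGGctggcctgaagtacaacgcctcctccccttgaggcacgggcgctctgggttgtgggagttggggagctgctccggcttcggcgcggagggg
MSMO1, chr4:165327419-165327718, plus strand: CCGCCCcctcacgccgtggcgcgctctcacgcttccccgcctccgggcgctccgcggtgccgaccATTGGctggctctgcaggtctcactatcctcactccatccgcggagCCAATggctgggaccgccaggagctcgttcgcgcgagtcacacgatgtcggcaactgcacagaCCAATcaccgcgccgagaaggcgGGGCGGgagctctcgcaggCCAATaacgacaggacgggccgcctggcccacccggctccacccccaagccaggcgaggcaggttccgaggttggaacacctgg
HSD17B7, chr1:162790452-162790751, plus strand: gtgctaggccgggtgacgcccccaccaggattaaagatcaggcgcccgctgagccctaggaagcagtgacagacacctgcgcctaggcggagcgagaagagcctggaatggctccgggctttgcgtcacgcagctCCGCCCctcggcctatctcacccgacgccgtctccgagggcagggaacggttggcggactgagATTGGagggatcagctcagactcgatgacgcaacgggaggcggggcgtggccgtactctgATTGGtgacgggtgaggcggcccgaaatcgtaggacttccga
NSDHL, chrX:152830813-152831112, plus strand: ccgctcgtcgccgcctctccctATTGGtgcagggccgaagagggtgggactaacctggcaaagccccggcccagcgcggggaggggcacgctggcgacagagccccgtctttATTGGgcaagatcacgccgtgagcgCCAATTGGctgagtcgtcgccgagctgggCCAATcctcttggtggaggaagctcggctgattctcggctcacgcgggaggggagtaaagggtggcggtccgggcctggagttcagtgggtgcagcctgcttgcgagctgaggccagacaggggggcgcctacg
SREBF2, chr22:41832855-41833154, plus strand: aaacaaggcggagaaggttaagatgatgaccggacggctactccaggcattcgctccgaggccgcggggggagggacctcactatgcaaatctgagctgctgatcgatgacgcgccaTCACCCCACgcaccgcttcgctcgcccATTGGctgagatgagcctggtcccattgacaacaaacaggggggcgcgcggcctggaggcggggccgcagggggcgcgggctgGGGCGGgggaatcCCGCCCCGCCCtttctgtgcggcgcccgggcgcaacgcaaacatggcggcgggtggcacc
ELOVL6, chr4:110198566-110198865, minus strand: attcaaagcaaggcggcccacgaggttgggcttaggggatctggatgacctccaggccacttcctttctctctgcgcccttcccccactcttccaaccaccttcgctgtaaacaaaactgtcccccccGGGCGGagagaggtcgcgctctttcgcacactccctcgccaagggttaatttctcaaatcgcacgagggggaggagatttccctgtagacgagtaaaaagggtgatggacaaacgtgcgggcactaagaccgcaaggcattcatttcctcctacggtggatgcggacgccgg

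The CCAAT letters matched 5 times in the promoter of MVK and 5 times in that of NSDHL, where CCAATTGG counts once on each strand. They matched 4 times in that of MSMO1 and not in that of ELOVL6. The promoter table used here, taken from RefSeq, held 35 promoters for 26 of the 30 genes, and those of ACAT2, FDFT1, SQLE and FASN were not analysed here. CCAAT was found in at least 1 promoter of 19 of the 26 genes, or 73.1%, against 39.7% of all 27305 genes with a promoter in the table and 34.6% of all 35116 promoters. The genes without it were CYP51A1, ELOVL6, FADS1, INSIG2, PMVK, SCAP and SREBF1. GGGCGG was found in 25 of the 26 genes, or 96.2%, against 48.3% of all genes and 45.0% of all promoters, and NSDHL was the gene without it. TCACNCCAC was found in SREBF2 only, against 1.39% of all genes and 1.13% of all promoters. Only this spelling was searched, so a promoter without it cannot be said to lack a sterol response element. No letters of one motif overlapped those of another in these promoters. The background was every gene with a promoter in the table, not only the compared genes. G and C made up 45.3% to 82.3% of the letters in the 35 promoters, and GGGCGG holds only G and C. The shares were not matched for this content or for expression, so they are not like for like. These matches are letters in a window and were not tested as binding sites.

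HOTAIR, the target, was read from 1 spot, with a signal of 107.8 after #1 siHOTAIR and 243.9 after siGFP, which was 57.2% lower after scaling. The reference genes ACTB and GAPDH had log2 ratios between -0.05 and 0.00. All ratios below are log2 of #1 siHOTAIR over siGFP after each array was set to its 75th percentile, which was 650.3 and 629.9, and a ratio below 0 means lower in #1 siHOTAIR-transfected cells. Signals are given as intensity before this scaling, and each probe is set only against itself, with the value after #1 siHOTAIR first and the value after siGFP second. The measurement SD printed beside a ratio was estimated on 608 probes printed 10 times, grouped into 6 classes by brightness, and describes reading error inside an array and not variation among cultures.

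SBC-3 was checked against markers of SCLC and of other cells. INSM1, POU2F3 and SYP were well above background on neither array, while NEUROD1, a neuroendocrine factor, had signals of 212.7 and 371.8 after #1 siHOTAIR and after siGFP and YAP1, a marker of the variant without neuroendocrine features, had 6533 and 6756. Of 4 adipocyte markers 0 were above background. Of 6 hepatocyte markers 5 were above background on each array and APOA2 on neither, and their summed signal was 644.1 after #1 siHOTAIR and 1938 after siGFP, with AFP at 83.8 against 431.5, ALB at 42.8 against 238.9 and TTR at 286.6 against 1025. The remaining hepatocyte markers differed less, with APOA1 at 124.8 against 155.0 and SERPINA1 the other way, at 97.4 against 76.4. Liver is rich in lipid synthesis as well, and the part of this shift in the results below was not tested. Of 4 epithelial markers, KRT8 and KRT18 were above background on both arrays, EPCAM after siGFP alone, at 9.21 against 44.6, and CDH1 on neither, with summed signals of 3274 and 3185. Of 4 fibroblast, 4 leukocyte and 3 endothelial markers, 2, 2 and 1 were above background on both arrays, and DCN, LUM, CD3E, PECAM1 and VWF were on neither. Their summed signals were 4612 and 4172, 256.1 and 221.7, and 149.7 and 147.0, and within the fibroblast list COL1A2 read 3760 against 3742 and COL1A1 832.0 against 415.1. The part of these markers in the results was not tested.

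Most of the lipid synthesis genes had a lower signal in #1 siHOTAIR-transfected cells, by small amounts, and the fatty acid enzymes were split. The ratio was below 0 for 21 of the 30 genes, or 70%, against 47.7% of all compared genes. The median ratio was -0.24, against 0.02 for all compared genes. With RNA of a whole culture, fewer cells with a transcript and less of it per cell cannot be told apart. HSD17B7 was the 1 gene at least 2-fold lower, and 0 were at least 2-fold higher, where 3.41% and 2.74% of all compared genes passed those limits. At 1.5-fold, 3 genes (HSD17B7, MSMO1 and STARD4) were lower and 1 (ELOVL6) was higher, against 8.71% and 8.12% of all compared genes. In this setting these counts gave no excess of large differences. MVK and FDPS fell just short, at 1.496-fold and 1.483-fold lower. MVK passed with quantile normalization, and both passed when scaled to the median of probes well above background on both arrays. With normexp, a model-based background correction, or with uncorrected signal, MSMO1 and STARD4 fell short of 1.5-fold, and HSD17B7 was the 1 gene past it on the lower side. By more than 2 measurement SD, 19 of the 30 genes were lower and 5 were higher, against 24.8% and 28% of all compared genes. Brighter probes have smaller measurement SDs and pass this limit more easily. Of the 30 genes 21 were above the 75th percentile on both arrays, against 6057 of the 13012 compared genes, so these shares are not like for like. With the arrays scaled to the spike-in RNA in place of the percentile, 13 of the 30 were lower and 8 higher. All compared genes moved with them, from 53.0% to 73.7% higher among the genes past this limit.

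**Figure D1:**
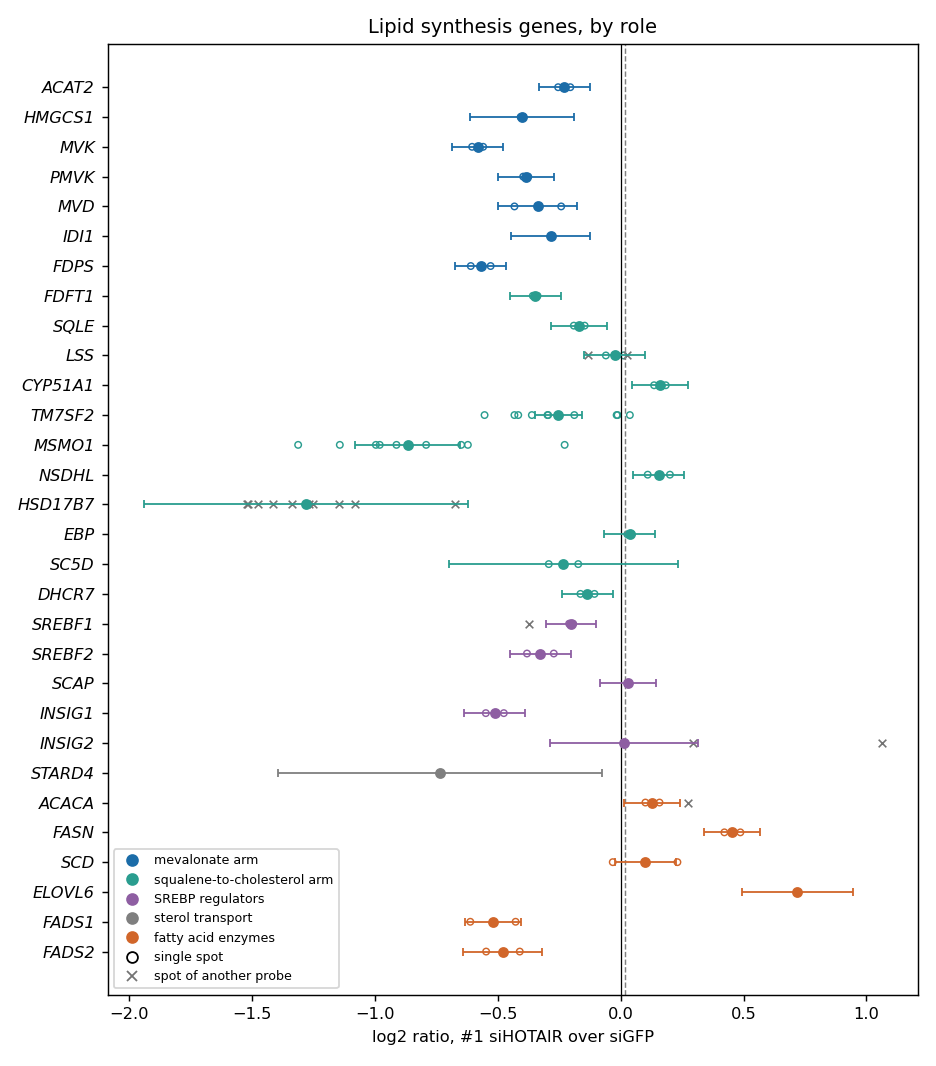
Each row is a gene and the x axis is the log2 ratio of #1 siHOTAIR over siGFP, with filled points for the probe used, bars of 2 measurement SD, open circles for its single spots and crosses for spots of other probes of the gene. The dashed line is the median of all compared genes, 0.02, and all 7 genes of the mevalonate arm lie left of 0 with their bars.

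The mevalonate arm was lower throughout: all 7 enzymes had a ratio below 0, from -0.58 to -0.23, with a median of -0.39. All 7 were lower by more than 2 measurement SD, against 24.8% of all compared genes. Scaled to the spike-in RNA, which shifts every ratio up alike, ACAT2 at -0.09 and IDI1 at -0.15 were within 2 measurement SD. ACAT2, the cytosolic thiolase that joins the first acetyl-CoA units, had signals of 8375 after #1 siHOTAIR and 9508 after siGFP, a ratio of -0.23 with a measurement SD of 0.05. HMGCS1, which adds the next unit to form HMG-CoA, had 269.8 and 274.3 on its 2 spots after #1 siHOTAIR against 346.3 and 349.4 after siGFP. Its ratio was -0.40 with a measurement SD of 0.11.

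MVK, the kinase that puts the first phosphate on mevalonate, showed the largest difference of this arm. Its 2 spots read 5571 and 5397 after #1 siHOTAIR and 7947 and 7943 after siGFP, a ratio of -0.58 with a measurement SD of 0.05. PMVK, which adds the following phosphate, read 2032 against 2571, a ratio of -0.39 with a measurement SD of 0.06. MVD, the decarboxylase that makes isopentenyl pyrophosphate, had spots of 557.6 and 659.7 against 728.4 and 755.4. Its spots gave ratios of -0.43 and -0.24 and a mean of -0.34, so the size of its difference was less certain than its side.

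IDI1 isomerizes isopentenyl pyrophosphate and was read from a single spot, 1676 against 1976, a ratio of -0.28 with a measurement SD of 0.08. FDPS makes farnesyl pyrophosphate, where sterols and other isoprenoids part. Its spots read 16917 and 16551 after #1 siHOTAIR against 24991 and 23122 after siGFP, a ratio of -0.57 with a measurement SD of 0.05. The 6 genes of this arm with 2 spots had both spots below 0 and no overlap between the arrays. With 2 spots this says little, as EBP and SCAP, described below with ratios within their measurement SD, did not overlap either. The share over all probes with 2 spots was not counted.

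**Figure D2:**
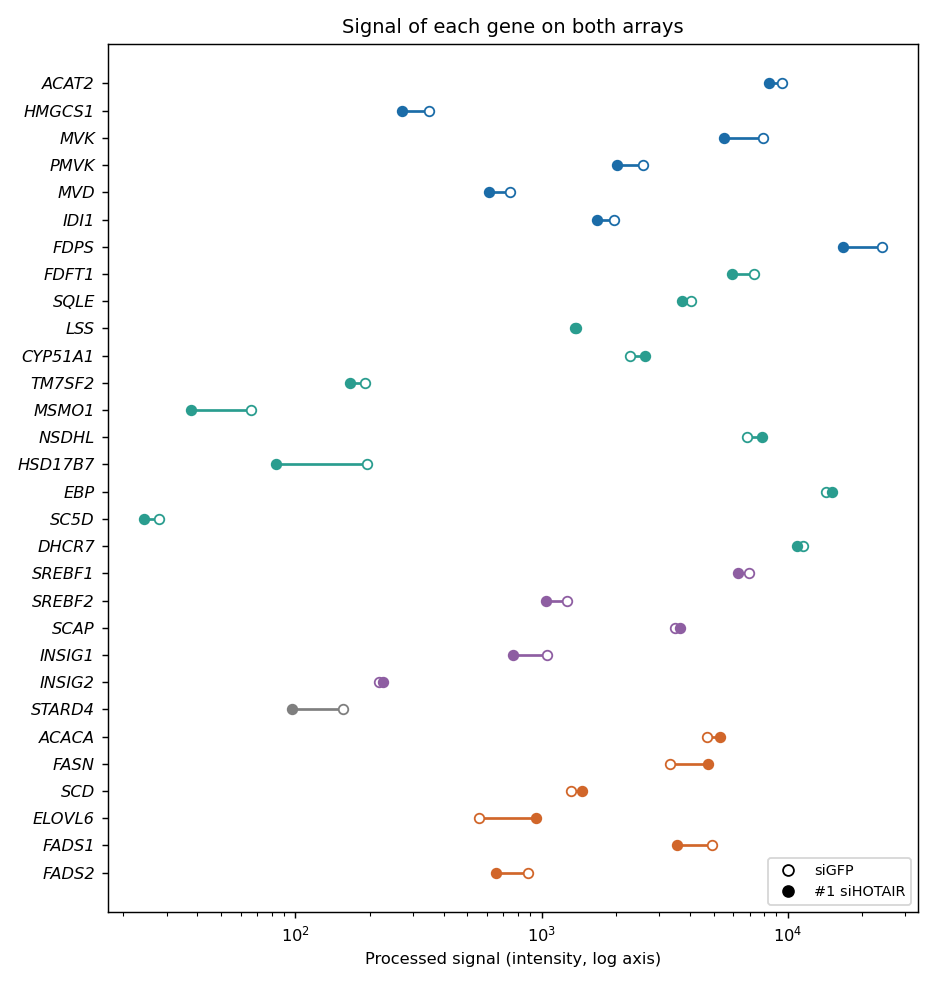
The x axis is the processed signal (intensity before scaling, log axis) and each row is a gene, with open circles for siGFP, filled circles for #1 siHOTAIR and colors for roles as in the plot of ratios. Within a row the filled point lies left of the open one for every gene of the mevalonate arm, and right of it for ACACA, FASN, SCD and ELOVL6, while rows cannot be set against each other because each probe has its own brightness.

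From squalene to cholesterol the enzymes were mixed. The ratio was below 0 for 8 of 11 and the median was -0.17. By more than 2 measurement SD 6 were lower and 2 higher, against 24.8% and 28% of all compared genes. Scaled to the spike-in RNA, SQLE and DHCR7 were no longer lower past this limit, and EBP was higher past it. With the 2 genes dim on the #1 siHOTAIR array at their bound, described below, the median was -0.13. Over both sterol arms, 15 of 18 enzymes were below 0, with a median of -0.27. Here 13 were lower and 2 higher by more than 2 measurement SD, against the same shares of all compared genes.

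FDFT1, the synthase of squalene and thus the branch toward sterols, read 5895 and 5955 against 7288 and 7312, a ratio of -0.35 with a measurement SD of 0.05. SQLE, the oxygen-dependent epoxidase of squalene and a flux-controlling step, read 3710 against 4035, a ratio of -0.17 with a measurement SD of 0.06. LSS, which closes the rings of lanosterol, read 1385 against 1364 on one probe and 82.6 against 82.4 on the other. Its ratios of -0.02 and -0.05 were smaller than their measurement SDs of 0.06 and 0.23. From FDFT1 to LSS the ratios thus ran from -0.35 to about 0.

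The demethylation of lanosterol is shared by several enzymes, and these did not move one way. CYP51A1, the cytochrome that removes the first methyl group, was higher at 2590 and 2670 against 2282 and 2277, a ratio of 0.16 with a measurement SD of 0.06. NSDHL, a dehydrogenase of the same sequence whose promoter with 5 CCAAT matches is shown above, was higher as well, at 7675 and 8052 against 6469 and 7224, a ratio of 0.16 with a measurement SD of 0.05. MSMO1, the methyl sterol oxidase that works between them, ran the other way. It was read from 1 probe with 10 spots, of which 3 were well above background after #1 siHOTAIR and all 10 after siGFP, 1 of these an outlier. Over the 9 usable spot pairs the signal ran from 28.7 to 51.8 with a median of 39.6 in #1 siHOTAIR-transfected cells, and from 58.6 to 81.9 with a median of 64.2 after siGFP. All 9 pairs were lower and the arrays did not overlap. The probe was not well above background in #1 siHOTAIR-transfected cells. Its level there was set to a bound, the lowest signal well above background of any spot on that array. With this level MSMO1 was 1.81-fold lower. Some spots of MSMO1 above that bound were not called well above background, so 1.81-fold is not a minimum. Its log2 ratio at the measured level was -0.87 with a measurement SD of 0.11, and it shrank to -0.34 with normexp and -0.31 when the background was not subtracted.

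TM7SF2, a reductase that acts on the product of CYP51A1, was read from 10 spots that ran from 146.9 to 188.9 with a median of 161.8 after #1 siHOTAIR and from 151.6 to 209 with a median of 195.5 after siGFP. Of the 10 spots 9 were lower, the arrays overlapped, and the ratio was -0.25 with a measurement SD of 0.05. HSD17B7, the ketoreductase that completes the demethylation, was the lowest of the 30 genes and the only one past 2-fold. It had 3 probes. The probe with 10 spots had 9 usable pairs, from 66.4 to 93.2 with a median of 79.3 after #1 siHOTAIR and from 164.5 to 220.3 with a median of 184.5 after siGFP, with all 9 lower and no overlap. Its ratio was -1.35 with a measurement SD of 0.11. The slightly brighter probe with 1 spot, which stands for the gene in the counts, read 83.1 against 195.1, a ratio of -1.28 with a measurement SD of 0.33, and another single spot read 84.0 against 129.6, a ratio of -0.67. All 3 probes were thus lower, with 1 of them short of 2-fold. Among the 12024 genes well above background on both arrays, 76 had a lower ratio than HSD17B7. Near-identical pseudogene copies of HSD17B7 exist that a probe could also bind, so its identity is uncertain, and with 2 other background treatments it stayed within 2-fold, at -0.85 and -0.78.

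**Figure D3:**
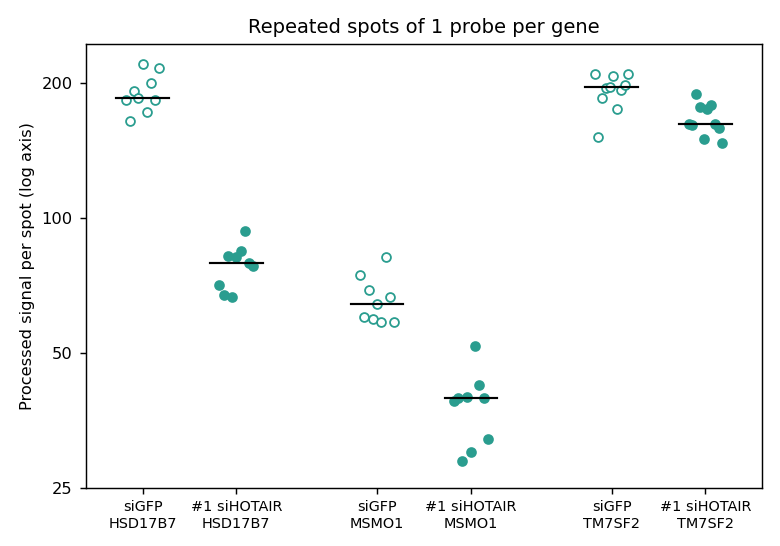
Each point is the processed signal of a spot (intensity before scaling, log axis) of the probe with 10 spots of HSD17B7, MSMO1 and TM7SF2, open for siGFP and filled for #1 siHOTAIR, with a line at the median, and spots marked as outliers on either array are left out. The arrays are apart for HSD17B7 (medians 184.5 and 79.3) and MSMO1 (64.2 and 39.6) and overlap for TM7SF2 (195.5 and 161.8).

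The last steps differed little. EBP, the isomerase that shifts the double bond of the ring, read 15158 against 14318, a ratio of 0.04 within its measurement SD of 0.05. SC5D, the desaturase that follows, was at the edge of detection, with 1 of its 2 spots above background after siGFP and neither in #1 siHOTAIR-transfected cells, so no fold is given for signals of 24.4 and 27.9. DHCR7, the reductase that ends the pathway through 7-dehydrocholesterol, had spots of 10233 and 11482 against 11098 and 11970, a ratio of -0.13 with a measurement SD of 0.05, and the arrays overlapped before scaling. Scaled to the spike-in RNA, its ratio was 0.0028.

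Among the SREBP regulators, both SREBP genes and INSIG1 were lower while SCAP and INSIG2 were not. The median of the 5 was -0.20, and 3 were lower by more than 2 measurement SD, against 24.8% of all compared genes. Scaled to the spike-in RNA, SREBF1 at -0.06 was within this limit, and SCAP at 0.17 was higher past it. SREBF2, the gene of SREBP-2 whose promoter above holds a match to TCACNCCAC, had spots of 1068 and 1013 against 1249 and 1277, a ratio of -0.33 with a measurement SD of 0.06. SREBF1, the gene of SREBP-1, read 6264 against 6974, a ratio of -0.20 with a measurement SD of 0.05, and its other probe read 377.4 against 472.5, a ratio of -0.37. Both genes were thus lower on each spot read, by less than 1.5-fold.

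INSIG1, the retention protein of SCAP and itself a sensitive SREBP target, had spots of 747.0 and 779.3 against 1058 and 1049. Its ratio of -0.51 with a measurement SD of 0.06 was the lowest of the regulators. SCAP, the escort of the SREBPs, read 3657 against 3471, a ratio of 0.03, within its measurement SD of 0.06. INSIG2, the other retention protein, had probes that disagreed. The brighter one read 227.6 against 218.5 on its single spot, a ratio of 0.01. The other had spots of 81.0 and 164.4 after #1 siHOTAIR against 63.9 and 76.3 after siGFP, with ratios of 0.30 and 1.06, the largest gap between the spots of any of the 25 probes with 2 spots. Both INSIG2 probes lay above 0, unlike INSIG1, and how far INSIG2 differed cannot be read from them. STARD4, a soluble carrier of cholesterol between membranes and an SREBP target, was read from 1 spot, 96.4 against 155.4, and was 1.66-fold lower, a ratio of -0.73 with a measurement SD of 0.33. Its ratio was -0.35 with normexp and -0.32 when the background was not subtracted, which is short of 1.5-fold.

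Of the 6 fatty acid enzymes, FASN, ELOVL6 and ACACA were higher and FADS1 and FADS2 were lower by more than 2 measurement SD, and SCD was within it. Among all compared genes 28% were higher and 24.8% lower past this limit. The median of the 6 enzymes was 0.11 and 4 of 6 were above 0. ACACA, the carboxylase that makes malonyl-CoA, had spots of 5275 and 5333 against 4578 and 4817, a ratio of 0.13 with a measurement SD of 0.06, and its other probe read 474.8 against 380.0, a ratio of 0.28. The brighter probe was just past its limit of 0.11. Its ratio was 0.09 with quantile normalization and 0.10 when scaled to the median of probes well above background on both arrays, both within the limit. Scaled to the spike-in RNA it was 0.27, and SCD at 0.24 then passed as well. FASN, the synthase that builds palmitate from malonyl-CoA, had spots of 4598 and 4847 against 3324 and 3349. It was 1.37-fold higher, a ratio of 0.45 with a measurement SD of 0.06, and its 2 spots gave 0.42 and 0.49.

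ELOVL6, which lengthens palmitate to stearate, was the highest of the 30 genes. It was read from 1 spot, 949.1 against 558.5, and was 1.65-fold higher, a ratio of 0.72 with a measurement SD of 0.11. Among all genes well above background on both arrays, 471 were at least as high. SCD, the stearoyl-CoA desaturase that makes oleate, had spots of 1370 and 1548 against 1356 and 1277. Its ratio of 0.10 with a measurement SD of 0.06 rested on 1 of the spots, as the other gave -0.03.

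FADS1 and FADS2, the front-end desaturases that make long polyunsaturated fatty acids, were lower. FADS1 had spots of 3614 and 3464 against 5346 and 4510, a ratio of -0.52 with a measurement SD of 0.06. FADS2 had spots of 633.0 and 670.2 against 895.5 and 862.4, a ratio of -0.48 with a measurement SD of 0.08. Neither gene overlapped between the arrays, which was also so for EBP and SCAP with ratios near 0. Their ratios lay closer to those of MVK and FDPS than to those of ACACA, FASN and ELOVL6. The median of the sterol enzymes lay 0.38 below that of the fatty acid enzymes on the log2 scale, and this gap ran from 0.34 to 0.42 over the 12 other ways of processing. Spike-in scaling, no scaling and scaling to the median probe shift every ratio alike, so they could not alter the gap.

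**Figure D4:**
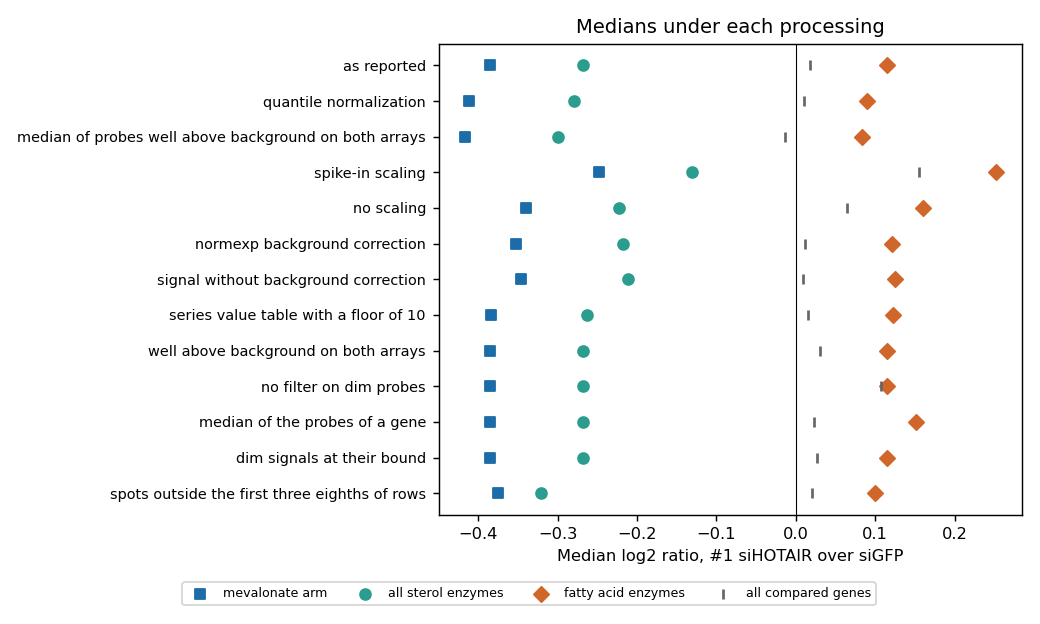
The x axis is the median log2 ratio of #1 siHOTAIR over siGFP and each row is a way of processing the arrays, with squares for the mevalonate arm, circles for all 18 sterol enzymes, diamonds for the 6 fatty acid enzymes and ticks for all compared genes. The sterol medians stay below 0 and the fatty acid medians above 0 in every row, and scaling to the spike-in RNA moves all of them up, with all compared genes at 0.16.

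The rest of lipid metabolism was read from 7 lists with 67 genes, of which 62 were compared. Their median was -0.01, near the 0.02 of all compared genes, with 34 below 0, and 0 were at least 2-fold higher and 1 at least 2-fold lower. By more than 2 measurement SD 20 of the 62 were higher and 21 lower, against 28% and 24.8% of all compared genes. The 10 genes that process SREBPs or act with INSIG had a median of 0.01. ERLIN1, part of the complex that degrades sterol-regulated enzymes, was their highest at 177.4 against 114.9, a ratio of 0.58, and its partner ERLIN2 their lowest at 474.5 against 543.0, a ratio of -0.24, with other ERLIN2 probes at -0.64 and 0.12.

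Of 18 further genes of fatty acid synthesis and elongation, 14 were compared, with a median of -0.13 and 3 higher and 7 lower by more than 2 measurement SD, against the same shares of all compared genes. ACACB, the mitochondrial carboxylase, read 31.7 against 79.9, dim in #1 siHOTAIR-transfected cells. With that level at its bound ACACB was 2.20-fold lower, while ACACA was slightly higher. The 11 genes of the nonsterol isoprenoid branch, which use farnesyl pyrophosphate for prenyl groups, ubiquinone and dolichol, had a median of -0.02. They ran from GGPS1, which makes geranylgeranyl pyrophosphate, at 67.7 against 82.9 with a ratio of -0.34, to DHDDS, which starts dolichol, at 323.6 against 233.4 with a ratio of 0.43. The median of this branch lay near that of all compared genes, and the difference from the mevalonate arm that feeds it was not tested.

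The 6 genes of the LXR receptors and sterol efflux had a median of -0.15, from MYLIP, a ligase that degrades lipoprotein receptors, at 560.9 against 755.2 with a ratio of -0.48, to LPCAT3, a phospholipid acyltransferase, at 2541 against 1725 with a ratio of 0.51. Of 3 genes of sterol esterification 2 were compared, SOAT1, which esterifies cholesterol, at 175.9 against 147.1 and NCEH1, a hydrolase, at 545.0 against 449.7, with ratios of 0.21 and 0.23. The 10 genes of triglyceride and phospholipid synthesis had the highest median, 0.27, with 7 higher and 2 lower by more than 2 measurement SD, against 28% and 24.8% of all compared genes. Among those above background on both arrays, DGAT1, which makes triglyceride, was highest at 2140 against 1582 with a ratio of 0.39, although its dimmer probe gave -0.62, and AGPAT1, which makes phosphatidic acid, was lowest at 2687 against 3181 with a ratio of -0.29. The 9 genes of fatty acid oxidation had the lowest median, -0.20, and CPT1B, a carnitine acyltransferase, was their lowest at 65.3 against 123.6 with a ratio of -0.96.

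**Figure D5:**
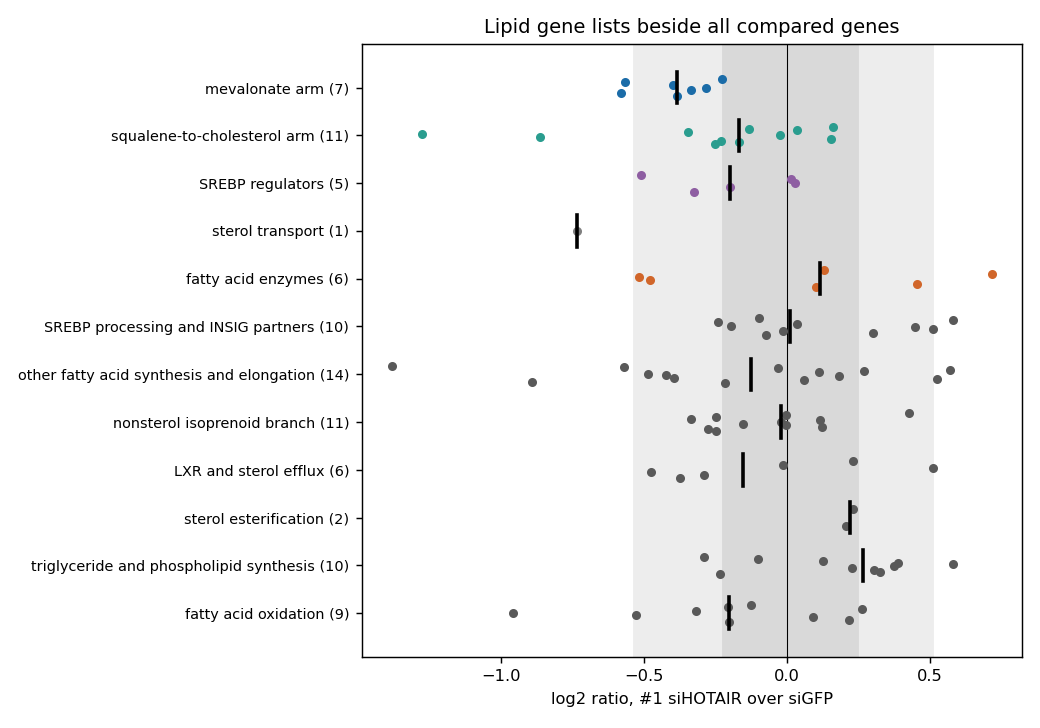
Each point is a gene at its log2 ratio of #1 siHOTAIR over siGFP, rows are the roles and the other lipid lists with the number of genes compared, and black lines are medians. The dark and light bands span the 25th to 75th and the 10th to 90th percentile of all compared genes, from -0.22 to 0.25 and from -0.53 to 0.51, and the whole mevalonate arm lies left of the dark band.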

How the data were processed

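Gene expression was measured on 1 array for each condition, and groups were taken from the sample labels. Per the file headers, both arrays lay on the same slide, and Agilent Feature Extraction 10.10.1.1 (version from the submitters' processing notes) subtracted the background, removed spatial trends and replaced very low signals by surrogates. The deposited intensity was not normalized between arrays, and the deposited series table equals the background-subtracted intensity.

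Log2 intensity was set against the 75th percentile of non-control spots, outlier spots were left out and spots of a probe averaged. A probe passed on an array when 50% or more of its spots were called well above background (52.1% of probes for #1 siHOTAIR, 55.3% for siGFP), and was compared if it passed on 1 array or both (24117 of 42402). A dim level was raised to the lowest signal well above background, 37.3 or 28.6, or kept if higher. The probe with the highest mean signal stood for a gene. RefSeq accessions (GRCh38.p14, names only; the arrays' headers give hg19) named 58.5% of probes. The number of arrays limits all precision, and the P-value and ontology steps of the methods were not repeated.

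The genes and lists were chosen with earlier results of these data known. The text names all 30 genes, HOTAIR, ACTB, GAPDH, markers and, of each further list, genes past 2-fold or else the highest and lowest above background on both arrays. A few genes that this rule names are not reported here. Other scalings, background treatments (normexp, a model-based correction, offset 50), filters, probe rules, array rows and fold limits were tried. Calls of probes were tested on simulated data with planted changes. Python 3.11.15, pandas 2.3.3, R 4.3.3 and limma 3.58.1 were used.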

Additional observations from a re-analysis of the deposited data

How the results depend on the processing

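The ratio of the mevalonate arm was below 0 for each enzyme in every setting that measured it, with MVK and IDI1 not measured outside the first 144 rows. Scaling to the spike-in RNA moved all compared genes to a median of 0.16, and with it the median of the 30 genes to -0.11, of the sterol enzymes to -0.13, of the fatty acid enzymes to 0.25 and of the SREBP regulators to -0.064. The ratio of DHCR7 turned from -0.13 to 0.0028. The distance of the 30 genes from the median of all compared genes was -0.26 under both scalings. This was fixed in advance, because the spike-in scaling shifts every ratio by the same amount. Among all compared genes, those at least 2-fold changed were 356 higher and 444 lower as reported and 470 and 343 with the spike-in scaling.

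With spots outside the first 144 of 384 rows, which measured 24 of the 30 genes, the median was -0.34 for the measured genes and -0.38 for the SREBP regulators. There INSIG2 had no value, and SREBF1 was read from its dimmer probe, at -0.37. With the median of the probes of a gene the regulators gave -0.29, which is the value of SREBF1 over its probes. The count at least 2-fold lower, 1 as reported, was 0 with normexp and with uncorrected signal, 3 at 1.5-fold (1, HSD17B7, with either of those background treatments) and 0 at 3-fold, and the count higher was 1 at 1.5-fold. Beyond these changes of genes and probes, the causes of the shifts were not tested. Signals near background limit MSMO1, SC5D, STARD4 and HSD17B7, whose ratios moved most with the background treatment. No paired analysis was possible because there was 1 array per condition. Leaving out a replicate was not possible for the same reason.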
